A study of Mus musculus with 12 samples.

Results

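MHC class I molecules are surface complexes of a heavy chain, the light chain β2-microglobulin and a short peptide, and they show samples of a cell's own proteins to CD8+ T cells. Peptides are cut from proteins by the proteasome, pumped into the endoplasmic reticulum by the transporter TAP, trimmed there and loaded onto the heavy chain with the help of tapasin. Interferons raise many genes of this pathway together, and NLRC5 is a transactivator that acts on class I promoters. The genes described here are 9 genes of the pathway, chosen by name: the heavy chains *H2-K1*, *H2-D1* and *H2-T23*, the light chain *B2m*, the transporter subunits *Tap1* and *Tap2*, tapasin (*Tapbp*), *Nlrc5*, and the trimming peptidase *Erap1*. They are 9 of 35521 genes listed in the annotation, and all 9 were among the 12555 genes with enough reads to be tested. The choice was made with earlier results of these data known, so the counts of called genes below are descriptions.

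The genes were measured by bulk RNA sequencing in 4T1 cells, a mammary carcinoma line of BALB/c origin, in 3 groups of 4 libraries. Tu-Gr1+CD11b+-primed cells (tumor-primed) had shared a Transwell with Gr1+ cells taken from tumors of BALB/c mice bearing 4T1 tumors. Spl-Gr1+CD11b+-primed cells (spleen-primed) had shared one with Gr1+ cells from the spleens of such mice. In both groups, the Gr1+ cells were isolated on magnetic columns at day 21 after tumor injection, and the coculture ran for 48 h across 0.4 µm pores. Parental 4T1 cells carry no coculture in their labels. A comparison with them covers the presence of any Gr1+ cells together with any other difference in culture or handling, which the labels do not give. The comparison of both primed groups sets the source of the Gr1+ cells side by side. All groups are of 1 cell line. The labels do not say whether replicates came from separate cultures or donor mice, so p-values measure only the spread between these libraries, which may be technical.

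Libraries held 24566183 to 31637755 reads. All 9 epithelial markers examined had more than 3 reads in every library, and their summed level was 1877 to 2296 CPM (read counts scaled to library size) in tumor-primed, 2374 to 2562 CPM in spleen-primed and 2643 to 3938 CPM in parental libraries. Of 20 leukocyte and Gr1+ myeloid markers, *Mpo*, *Elane*, *Ngp*, *Camp*, *Tyrobp* and *Ccr2* were at 0 in every library, and 4 had more than 3 reads in every library. The summed level of the 20 was 7.57 to 12.6 CPM in tumor-primed, 5.88 to 7.66 CPM in spleen-primed and 6.08 to 7.45 CPM in parental libraries. *S100a8* and *Ltf*, granulocyte genes that epithelial cells can also express, were the only 2 of the 3 tested markers called between the groups, both higher in tumor-primed libraries. The part of these few reads in the results below was not tested. *Ptprc*, the pan-leukocyte marker CD45, had at most 10 reads in any library and *Itgam*, which encodes CD11b, at most 6. *Ly6c2*, a marker of monocytes, had 15, 15, 16 and 8 reads in tumor-primed, 6, 2, 2 and 2 in spleen-primed and 1 to 2 in parental libraries, too few to be tested but without overlap between the tumor-primed libraries and the rest. Of 7 markers of B, T, dendritic and macrophage cells, 3 were at 0 in every library, and the summed level of the 7 stayed at or below 0.745 CPM. In bulk RNA, fewer cells of a type and less RNA per cell cannot be told apart.

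On GRCm38, 6 of the 9 genes lie on chromosome 17. *H2-K1* (ENSMUSG00000061232) spans chr17:33996017-34000347 on the minus strand, *H2-D1* (ENSMUSG00000073411) chr17:35262730-35267499 on the plus strand and *H2-T23* (ENSMUSG00000067212) chr17:36029773-36032855 on the minus strand. *Tap1* (chr17:34187553-34197225), *Tap2* (chr17:34203527-34216321) and *Tapbp* (chr17:33915899-33929292) lie on the plus strand of the same region. *B2m* is at chr2:122147686-122153083, *Nlrc5* at chr8:94434356-94527272 and *Erap1* at chr13:74639568-74693201, all on the plus strand. RefSeq promoter windows, from 250 bases before to 50 after the start, were found for 7 of the 9 genes, with 8 windows in all because *H2-K1* has 2. The windows show which of these genes share the promoter elements searched for and which do not. No link between these elements and the levels of the genes was tested. The windows of *Tap1* and *Tapbp*, which held none of the matches put in capitals below, are not printed. The last 200 bases before the start are given for 5 genes, 5′ to 3′ on the strand of the gene, with capitals for matches to an interferon-stimulated response element (ISRE) core or a spaced X2-Y pair, both spelled out below, or to the consensus motif of NF-kB. The windows are chr17:34000348-34000547 (minus strand, the upstream of 2 windows) for *H2-K1*, chr17:35262894-35263093 (plus) for *H2-D1*, chr17:36032702-36032901 (minus) for *H2-T23*, chr2:122147487-122147686 (plus) for *B2m* and chr13:74639653-74639852 (plus) for *Erap1*.
H2-K1: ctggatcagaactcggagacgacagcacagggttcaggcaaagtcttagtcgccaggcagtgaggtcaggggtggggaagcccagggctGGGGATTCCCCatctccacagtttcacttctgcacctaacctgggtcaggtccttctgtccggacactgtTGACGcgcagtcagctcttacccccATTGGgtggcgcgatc
H2-D1: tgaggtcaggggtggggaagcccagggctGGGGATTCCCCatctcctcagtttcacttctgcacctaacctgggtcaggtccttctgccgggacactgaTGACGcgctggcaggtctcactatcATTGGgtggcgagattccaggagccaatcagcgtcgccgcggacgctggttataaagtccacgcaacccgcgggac
H2-T23: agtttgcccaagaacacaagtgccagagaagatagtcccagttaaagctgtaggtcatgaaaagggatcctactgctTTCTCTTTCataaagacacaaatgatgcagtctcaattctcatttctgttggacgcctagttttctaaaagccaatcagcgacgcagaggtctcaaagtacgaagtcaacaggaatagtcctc
B2m: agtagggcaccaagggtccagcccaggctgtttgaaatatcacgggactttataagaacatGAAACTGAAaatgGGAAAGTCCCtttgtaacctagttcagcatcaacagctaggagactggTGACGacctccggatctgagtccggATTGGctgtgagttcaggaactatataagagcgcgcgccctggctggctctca
Erap1: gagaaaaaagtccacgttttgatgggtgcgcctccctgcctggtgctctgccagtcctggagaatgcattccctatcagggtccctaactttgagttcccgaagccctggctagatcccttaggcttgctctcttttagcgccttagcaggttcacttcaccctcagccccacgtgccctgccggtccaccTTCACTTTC

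The searches took both strands of the 300-base windows. The ISRE core (GAAANNGAA) was found in *H2-T23*, in *B2m* and, as 2 overlapping matches at the start site, in *Erap1*, and it is present in 8.56% of all 32851 RefSeq windows. The printed windows of *H2-K1* and *H2-D1* both hold the letters cagtttcacttctgca, which resemble this core on the other strand without matching it. Other forms of the ISRE were not searched for, so a window without a match may still hold one. The NF-kB motif was found in *H2-K1*, *H2-D1* and *B2m*, and in 8.46% of all windows. In the printed windows of *H2-K1* and *H2-D1* the capitals hold 2 overlapping matches to it, offset by 1 base, and the letters are the same in both genes, beginning 111 and 171 bases before the start. The GAS motif (TTCNNNGAA), an element of interferon-γ responses, was found in none of the 8 windows and in 8.30% of all windows.

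*H2-K1*, *H2-D1* and *B2m* also shared an arrangement. In each, the X2 core (TGACG) was followed by the reverse of the Y box (ATTGG, for CCAAT), with 25 bases from the first letter of one to the first letter of the other. X2 and Y boxes are elements of the promoter module on which NLRC5 and its partners assemble. This spacing was taken from these 3 genes after the windows had been read, so its presence in them was fixed by that choice. It was present in 4 of the 8 windows, those of these 3 genes, and in 31 of the 32851 RefSeq windows (0.0944%). The windows of *H2-K1* overlap each other, and the share over all windows is a description, not a test. Of 13 other class I heavy chain genes with a window, 1 held it, *H2-M3*. *H2-T23* had a Y box but no X2 core, and *Tap1* had both letter strings without the spacing. *Tapbp* had Y boxes but none of the other motifs searched for. The Y box alone was in 37.4% and the X2 core alone in 20.8% of all windows. A match is a description of letters and says nothing of binding in these cells.

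Tumor-primed cells held more RNA of all 9 genes than spleen-primed cells. The quasi-likelihood test of edgeR, with p-values adjusted by Benjamini-Hochberg over 12555 genes, called 9 of 9 higher, against 4.66% of all tested genes, and none lower, against 2.97%. The median log2 fold change of the 9 was 0.48, compared with -0.01 over all tested genes. For 7 of the 9, every tumor-primed library lay above every spleen-primed library, a separation seen in 8.51% of tested genes. Sizes were unequal: *H2-T23* and *Tap1* differed by more than 1 on the log2 scale, whereas *H2-K1* and *H2-D1* differed by 0.28 and 0.24. On the authors' table of normalized counts, limma called 4 of the 9, *H2-T23*, *Tap1*, *Tapbp* and *Erap1*, with adjusted p of 0.0563 to 0.182 for the other 5 (*H2-K1*, *H2-D1*, *B2m*, *Tap2* and *Nlrc5*), each higher in tumor-primed cells.

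Against parental cells, tumor-primed cells again had 9 of 9 genes higher, where 31.2% of all tested genes were called higher and 28.0% lower, and 8 of the 9 were without overlap (28.6% of tested genes). Spleen-primed cells differed from parental cells in 2 of the 9, *Nlrc5* and *Tap2*, both higher, where 25.7% of tested genes were called higher and 22.5% lower. The same 2 were without overlap between these groups (21.3% of tested genes). The median of the 9 was 0.49 for tumor-primed and 0.05 for spleen-primed over parental cells, and the medians over all tested genes were both 0.02. The 3 comparisons share libraries in pairs and are not independent. No gene of the 9 was called lower in any comparison by edgeR, DESeq2 or limma-voom. In the edgeR fit none was lower at an unadjusted p under 0.05.

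**Figure D1:**
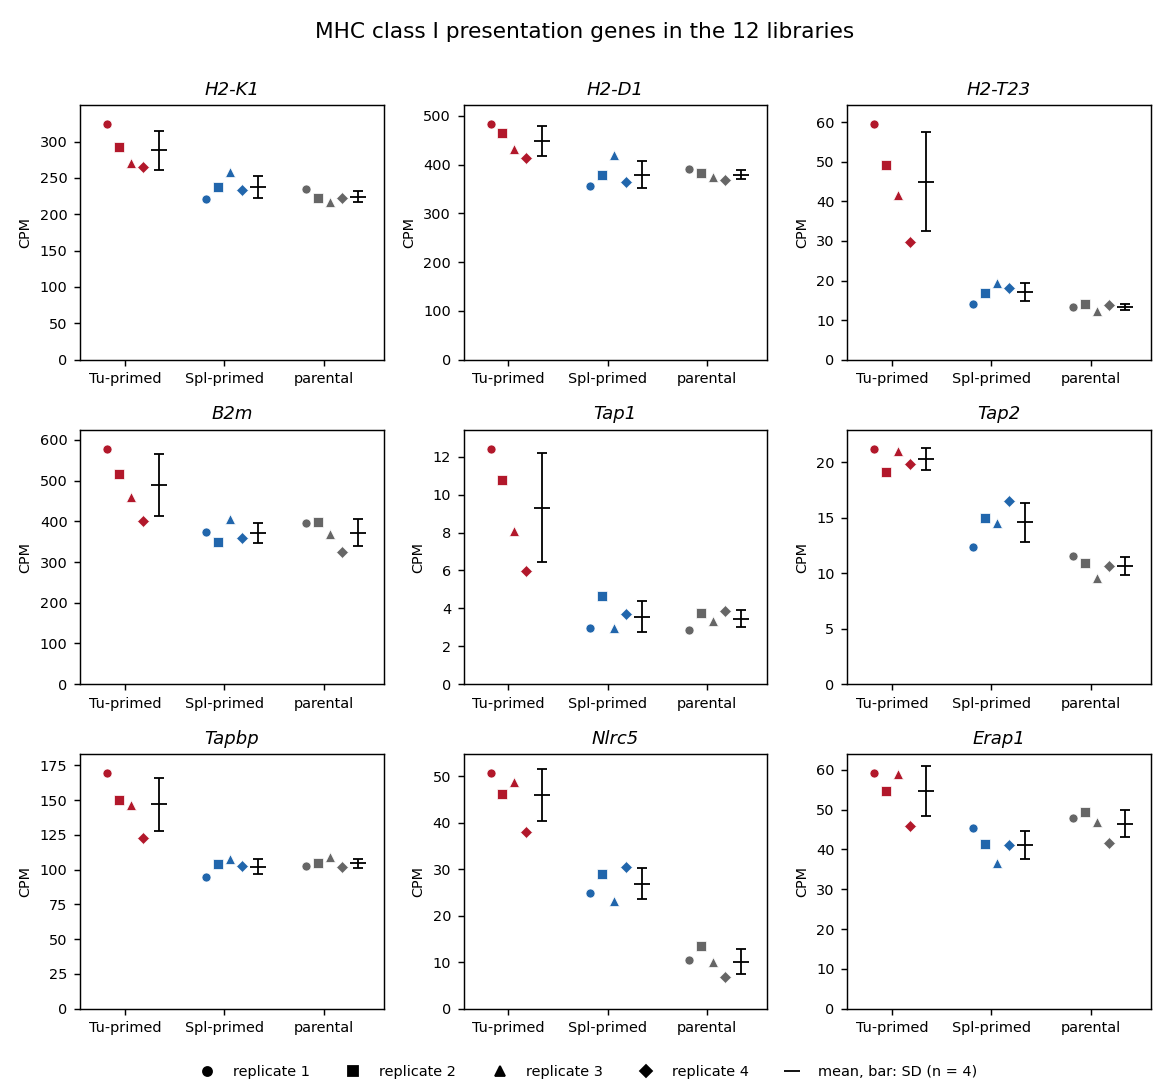
CPM of the 9 genes in each of the 12 libraries, with 1 panel per gene and an axis from 0. Colored symbols are single libraries by replicate number, and black bars give mean and SD (n = 4). The tumor-primed libraries of *H2-T23* lie at 29.8 to 59.5 CPM, above every spleen-primed library (at most 19.3 CPM), whereas *Nlrc5* falls into 3 separate levels.

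*H2-K1* and *H2-D1* encode the classical heavy chains, which carry peptides to CD8+ T cells. In tumor-primed replicates 1 to 4, *H2-K1* was at 323.8, 292, 269.9 and 265.6 CPM. In spleen-primed replicates it was at 221, 237.5, 258.6 and 233.1 CPM, and in parental replicates at 234.7, 222.3, 217.1 and 222.8 CPM. The tumor-primed libraries were the 4 highest, and the ranges of the spleen-primed and parental libraries overlapped. The log2 fold change was 0.28 ± 0.07 (SE; edgeR adjusted p = 0.0215) over spleen-primed and 0.36 ± 0.07 (adjusted p = 0.000437) over parental cells, and 0.08 ± 0.07 (adjusted p = 0.329) between spleen-primed and parental cells.

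*H2-D1* had the most assigned reads of the 3 heavy chains. Its levels were 482.7, 464, 431.1 and 414.6 CPM in tumor-primed, 356.7, 378.2, 419.1 and 363.6 CPM in spleen-primed and 391.1, 383.4, 374.6 and 369.2 CPM in parental replicates. Spleen-primed replicate 3 exceeded tumor-primed replicate 4, so these groups overlapped, while tumor-primed and parental libraries did not. The log2 fold changes were 0.24 ± 0.06 over both spleen-primed (edgeR adjusted p = 0.0293) and parental cells (adjusted p = 0.00443).

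*H2-T23* encodes Qa-1, a nonclassical heavy chain that presents leader peptides to NKG2 receptors of NK and T cells. It was at 59.5, 49.1, 41.6 and 29.8 CPM in tumor-primed replicates. Spleen-primed replicates had 14, 16.9, 19.3 and 18 CPM and parental replicates 13.3, 14, 12.3 and 13.8 CPM. The lowest tumor-primed library stood clear of the highest of the other 8. The log2 fold change was 1.40 ± 0.16 (edgeR adjusted p = 0.00011), or 2.64-fold, over spleen-primed and 1.75 ± 0.17 (adjusted p = 2.02e-06), or 3.36-fold, over parental cells. Spleen-primed over parental was 0.35 ± 0.17 (adjusted p = 0.107), and this difference was called without tumor-primed replicate 4 (adjusted p = 0.0277) and when only the 8 libraries of that comparison were fitted (adjusted p = 0.0181).

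*B2m*, the light chain that every class I heavy chain needs at the surface, had 578.3, 515.2, 459.8 and 401.7 CPM in tumor-primed replicates. It had 374.9, 349.1, 406 and 358.2 CPM in spleen-primed and 396.3, 398.3, 369.9 and 325.8 CPM in parental replicates. Tumor-primed replicate 4 fell below spleen-primed replicate 3 and just above the highest parental library. Its log2 fold change was 0.39 ± 0.10 both over spleen-primed (edgeR adjusted p = 0.0254) and over parental cells (adjusted p = 0.00376), and -0.002 ± 0.099 (adjusted p = 0.987) between spleen-primed and parental cells.

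*H2-K1*, *H2-D1* and *B2m* are the calls nearest to the threshold between the primed groups. Each was lost without tumor-primed replicate 1 or 2 or without spleen-primed replicate 1, 2 or 4, and *H2-D1* also without tumor-primed replicate 3. Across the 12 fits that left out 1 library, the adjusted p reached 0.0799 for *H2-K1*, 0.111 for *H2-D1* and 0.0904 for *B2m*, and the lowest log2 fold changes were 0.22, 0.20 and 0.30.

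Heavy and light chain levels were set against each other within each library. The sum of *H2-K1*, *H2-D1* and *H2-T23* was 781 ± 69.1 CPM (SD, n = 4) in tumor-primed, 634 ± 45.2 CPM in spleen-primed and 617 ± 16.2 CPM in parental libraries. *B2m* per summed heavy chain CPM was 0.623 ± 0.043, 0.588 ± 0.034 and 0.603 ± 0.046, with overlapping ranges. The make-up of the heavy chain reads, as assigned, differed. Of the reads on all class I heavy chain genes, *H2-K1* and *H2-D1* took 68.4% to 71.0% in tumor-primed, 72.7% to 73.8% in spleen-primed and 75.9% to 76.6% in parental libraries, without overlap between any 2 groups. This share was a value over named genes and was given no test. It depends on how reads were split among heavy chain genes that share sequence, and it counts reads on retained-intron transcripts. The effect of either was not tested.

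The transporter subunits differed in size of change. *Tap1* was a low gene, at 12.4, 10.8, 8.1 and 6 CPM in tumor-primed replicates (172 to 350 reads), 3, 4.6, 2.9 and 3.7 CPM in spleen-primed and 2.9, 3.7, 3.3 and 3.9 CPM in parental replicates. All 4 tumor-primed libraries lay above the other 8, whose 2 groups overlapped. Its log2 fold change was 1.39 ± 0.21 (edgeR adjusted p = 0.000874) over spleen-primed and 1.43 ± 0.21 (adjusted p = 7.13e-05) over parental cells, and 0.05 ± 0.23 (adjusted p = 0.876) between spleen-primed and parental cells.

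*Tap2* encodes the partner subunit. It was at 21.2, 19.1, 21 and 19.9 CPM in tumor-primed, 12.3, 15, 14.5 and 16.5 CPM in spleen-primed and 11.5, 11, 9.6 and 10.6 CPM in parental replicates. These 3 groups did not overlap. Log2 fold changes were 0.48 ± 0.09 (edgeR adjusted p = 0.0029) between the primed groups, 0.93 ± 0.09 (adjusted p = 1.84e-06) for tumor-primed and 0.45 ± 0.09 (adjusted p = 0.00105) for spleen-primed over parental cells. *Tap1* per *Tap2* CPM was 0.301 to 0.585 in tumor-primed, 0.203 to 0.310 in spleen-primed and 0.249 to 0.365 in parental libraries, with overlap.

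*Tapbp* encodes tapasin, which bridges TAP and the heavy chain. Its levels were 169.3, 149.9, 146.4 and 122.8 CPM in tumor-primed, 94.8, 104.1, 107.4 and 102.2 CPM in spleen-primed and 102.4, 104.5, 109.1 and 101.8 CPM in parental replicates. Every tumor-primed library exceeded the other 8, and the other 2 groups overlapped. The log2 fold changes were 0.53 ± 0.08 (edgeR adjusted p = 0.000821) over spleen-primed and 0.49 ± 0.08 (adjusted p = 0.000131) over parental cells. In the authors' normalized table the latter was 0.23 ± 0.12, which limma did not call (adjusted p = 0.126).

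*Erap1* encodes the aminopeptidase that trims peptides in the endoplasmic reticulum. It was at 59.1, 54.8, 59 and 45.9 CPM in tumor-primed, 45.3, 41.4, 36.7 and 41.2 CPM in spleen-primed and 47.9, 49.4, 47 and 41.5 CPM in parental replicates. Tumor-primed and spleen-primed libraries were separate by a narrow margin, and tumor-primed replicate 4 lay within the parental range. The log2 fold change was 0.41 ± 0.09 (edgeR adjusted p = 0.00954) over spleen-primed and 0.24 ± 0.09 (adjusted p = 0.0305) over parental cells. The second call was lost without tumor-primed replicate 1, 2 or 3 or parental replicate 3 or 4 (adjusted p up to 0.0949), and on the authors' normalized table (0.29 ± 0.16, limma adjusted p = 0.146). Spleen-primed over parental was -0.17 ± 0.09 (adjusted p = 0.114).

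*Nlrc5*, the class I transactivator, had the largest fold change of the 9 genes over parental cells. It was at 50.7, 46.2, 48.9 and 38 CPM in tumor-primed replicates. In spleen-primed replicates it was at 24.9, 29.1, 23.3 and 30.5 CPM, and in parental replicates at 10.4, 13.4, 10 and 6.8 CPM. The 3 groups formed 3 levels without overlap. The log2 fold change was 2.18 ± 0.16 (edgeR adjusted p = 2.24e-07), or 4.53-fold, for tumor-primed and 1.41 ± 0.16 (adjusted p = 1.55e-05), or 2.66-fold, for spleen-primed over parental cells. Between the primed groups it was 0.77 ± 0.15 (adjusted p = 0.00465), or 1.70-fold. Of the 9 genes, *Nlrc5* and *Tap2* were those in which spleen-primed cells stood above parental cells, while the classical heavy chains and *B2m* of the same cells had log2 fold changes from -0.002 to 0.08. *Ciita*, the corresponding transactivator of class II genes, had 4 to 15 reads per library and was not called in any comparison.

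**Figure D2:**
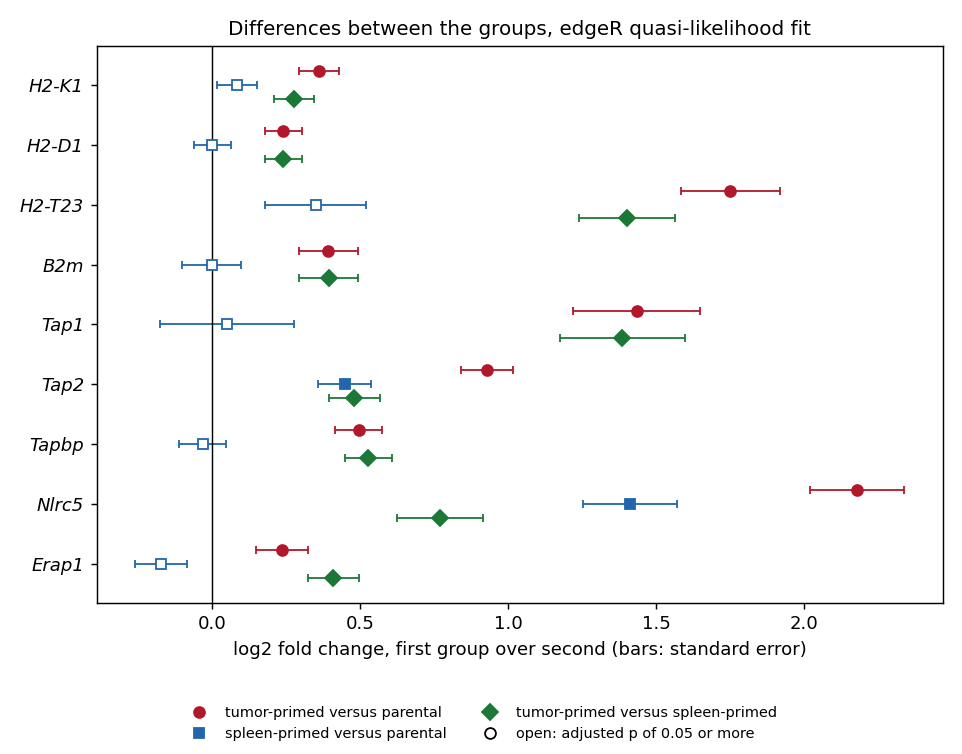
Log2 fold changes of the 9 genes in the 3 comparisons, as points with standard errors on a linear axis of log2 values. Filled symbols have an edgeR adjusted p under 0.05. Tumor-primed cells are higher than both other groups for all 9 genes, and the spleen-primed over parental symbol is filled for *Tap2* and *Nlrc5* alone.

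Levels can be compared between genes only per transcript length, as TPM (adjusted for length and depth), and only within a library, because the mitochondrial gene *mt-Atp8* took 4.52% to 7.05% of TPM in primed and 10.2% to 15.0% in parental libraries. In tumor-primed libraries the order of mean TPM was *B2m* (1094 ± 161, SD, n = 4), *H2-K1* (923 ± 81.2), *H2-D1* (371 ± 23.1), *Tapbp* (85.8 ± 9.62), *H2-T23* (47.0 ± 12.5), *Erap1* (36.5 ± 4.75), *Nlrc5* (18.5 ± 2.11), *Tap2* (17.3 ± 1.70) and *Tap1* (5.36 ± 2.49). *B2m* and *H2-K1*, *H2-T23* and *Erap1*, and *Nlrc5* and *Tap2* were neighbors with overlapping ranges over the group. Within each tumor-primed library *B2m* lay above *H2-K1*, whereas the other neighbors with overlapping ranges changed order between these libraries. In parental libraries *B2m*, *H2-K1*, *H2-D1* and *Tapbp* led in the same order, and *Nlrc5* (2.89 ± 1.21) stood below *Tap2* (7.91 ± 2.13). *Tap1* was the lowest in each group. The TPM of *Nlrc5* and *Tap2* lay in large part on transcripts not annotated as protein coding. On protein-coding transcripts alone, the means of *Nlrc5* and *Tap2* were 7.61 and 7.52 TPM in tumor-primed and 1.41 and 4.34 TPM in parental libraries. *H2-K1* lay above *H2-D1* in TPM and below it in CPM, and this order in TPM rested on retained-intron transcripts. On protein-coding transcripts alone, *H2-K1* was at 157 to 189 TPM in tumor-primed, 128 to 137 TPM in spleen-primed and 103 to 123 TPM in parental libraries, against 317 to 366, 259 to 294 and 181 to 239 TPM for *H2-D1*, and it was below *H2-D1* in 12 of 12 libraries.

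The transcripts on which the reads fell differed between genes. Reads were assigned by the authors' quantification, which splits a read among transcripts that share its sequence. *B2m* has 1 annotated transcript, which is protein coding. *Tap2* had 81.0% ± 1.1 (SD, n = 4) of its reads on retained-intron transcripts in tumor-primed, 76.3% ± 6.6 in spleen-primed and 76.9% ± 6.4 in parental libraries. On protein-coding transcripts alone, *Tap2* had log2 fold changes of 0.23 ± 0.22 between the primed groups (edgeR adjusted p = 0.607), 0.68 ± 0.23 for tumor-primed (adjusted p = 0.022) and 0.45 ± 0.23 for spleen-primed over parental cells (adjusted p = 0.13). Of its 3 calls, the one between tumor-primed and parental cells held on coding transcripts.

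*H2-K1* had 43.8% to 44.8% of its reads on retained-intron transcripts in tumor-primed, 42.4% to 46.4% in spleen-primed and 30.4% to 36.7% in parental libraries. Both primed groups lay above the parental group for *H2-K1*, and the same held for *H2-D1* (1.9% to 2.6%, 1.7% to 2.4% and 0% to 0.4%), *H2-T23* (14.9% to 17.2%, 17.7% to 26.4% and 4.7% to 9.5%) and *Nlrc5* (8.4% to 13.0%, 6.5% to 21.0% and 0% to 4.9%). Over all genes the share was 3.36% ± 0.11 in tumor-primed, 3.34% ± 0.24 in spleen-primed and 2.12% ± 0.10 in parental libraries, and the part of this shift in the members' shares was not tested. On coding transcripts alone, *H2-K1* was 0.17 ± 0.06 higher in tumor-primed than in parental cells (edgeR adjusted p = 0.0372) and 0.29 ± 0.06 higher than in spleen-primed cells (adjusted p = 0.0128), and spleen-primed over parental turned to -0.12 ± 0.06 (adjusted p = 0.131). *H2-T23*, *Tap1* and *Nlrc5* kept their calls in both comparisons of tumor-primed cells, with log2 fold changes of 1.49, 1.25 and 0.78 over spleen-primed cells.

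**Figure D3:**
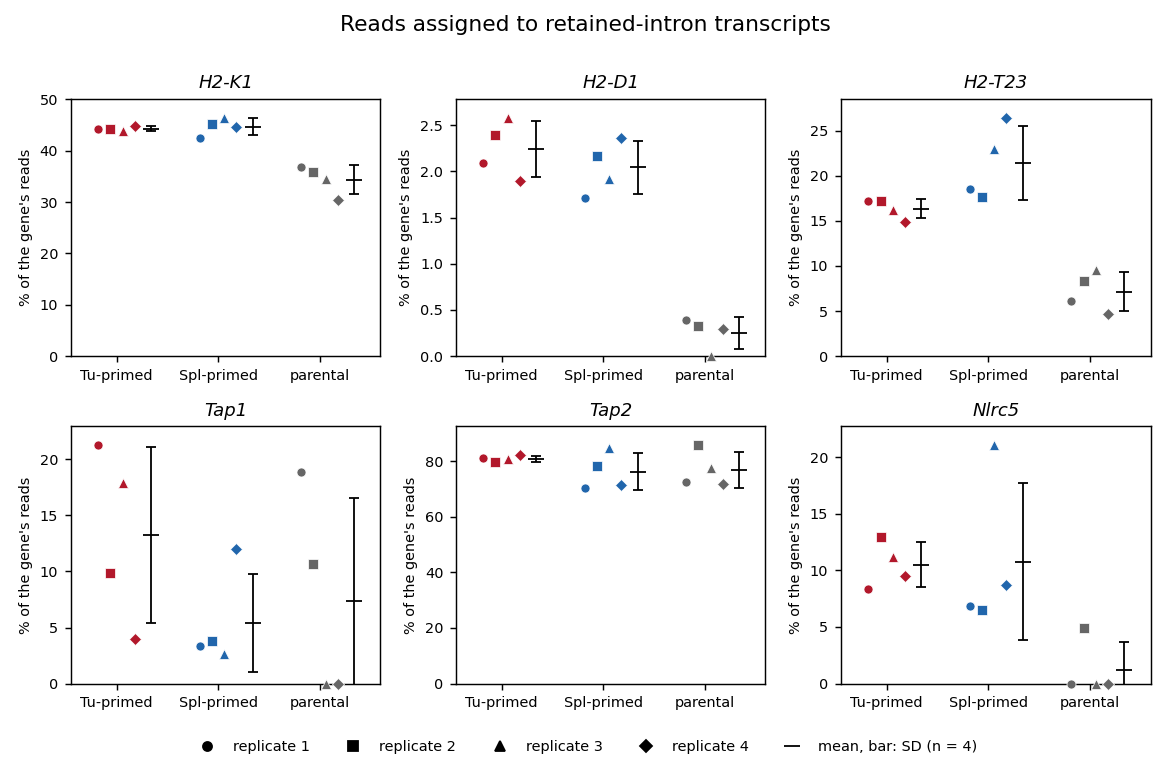
Percent of each gene's reads on transcripts annotated as retained intron, by library, for 6 of the 9 genes, with a separate axis from 0 in each panel. Symbols are single libraries and black bars give mean and SD (n = 4). *Tap2* lies between 70.5% and 85.7% in all 12 libraries, and the parental libraries of *H2-K1*, *H2-D1*, *H2-T23* and *Nlrc5* lie below both primed groups.

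Sequence shared with other genes limits the heavy chain values. Of the 31-base words in their transcripts, *H2-K1* shared 22.8%, *H2-D1* 26.7% and *H2-T23* 24.4% with other annotated genes, chiefly other class I heavy chains, so the split of reads among them is uncertain. *B2m* and *Nlrc5* shared none, *Erap1* 0.259%, *Tap1* 0.825%, *Tap2* 1.24% and *Tapbp* 4.38%. The reference genome is of the C57BL/6 strain, whose class I alleles differ from those of BALB/c. The effect on the counts, and on the order of *H2-K1* and *H2-D1* by reads or TPM, was not tested.

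Within the tumor-primed group the highest and lowest replicates were largely the same for the 9 genes. Replicate 1 was the highest of the 4 for 9 of 9 genes, as it was for 21.6% of all tested genes, and replicate 4 was the lowest for 8 of 9, as for 30.6% of tested genes. The exception was *Tap2*, lowest in replicate 2. Replicate 1 led replicate 3 only narrowly for *Tap2* (21.2 against 21.0 CPM) and *Erap1* (59.1 against 59.0 CPM). On the mean of their standardized log2 CPM, the tumor-primed libraries were at 1.76, 1.30, 1.06 and 0.42 SD units, the spleen-primed libraries between -0.67 and -0.27 and the parental libraries between -0.96 and -0.52. The 5 other genes that followed this mean most closely over the 12 libraries were *Dhx58* (Pearson r = 0.992), *Oas1g* (0.990), *Sp100* (0.990), *Mndal* (0.984) and *Oasl2* (0.983), all known as interferon-stimulated genes. After the group means were removed, r over the 12 libraries was 0.958, 0.935, 0.923, 0.896 and 0.861. These are descriptions of 12 libraries that share 3 groups, and they carry no test. *Dhx58*, a helicase of the RIG-I family, was at 21.5, 14.4, 11.2 and 4.41 CPM in tumor-primed replicates 1 to 4, and at most 1.85 CPM elsewhere.

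The rest of the pathway was read from fixed lists of other genes. The shares of all tested genes called higher and lower were 4.66% and 2.97% between the primed groups, 31.2% and 28.0% for tumor-primed over parental and 25.7% and 22.5% for spleen-primed over parental cells, so counts against parental cells in particular are to be read beside these. Of 11 tested other class I heavy chain genes (18 listed), 6 were higher in tumor-primed than in spleen-primed cells, 11 of 11 higher than in parental cells, and 5 were higher in spleen-primed than in parental cells, with none lower in any comparison, also at an unadjusted p under 0.05 and by DESeq2 or limma-voom. The list's median log2 fold changes were 0.31, 0.69 and 0.18. The 6 fell to 3 with the replicate number as a block, with protein-coding transcripts only, with the authors' table, at a threshold of 0.01, and without tumor-primed replicate 1 or 2 or spleen-primed replicate 1 or 4. The 5 fell to 3 without spleen-primed replicate 2 or 3 or parental replicate 2 or 3, with the 8 libraries alone, with protein-coding transcripts and at 0.01. *H2-T24*, a nonclassical heavy chain gene, had 321, 195, 187 and 49 reads in tumor-primed, 16, 8, 7 and 9 in spleen-primed and 7, 15, 8 and 1 in parental replicates. Its log2 fold change over spleen-primed cells was 4.29 ± 0.55 (edgeR adjusted p = 0.000234). *H2-T22*, a ligand of γδ T cells, was 0.81 ± 0.12 higher (adjusted p = 0.000712) and *H2-Q4* 0.44 ± 0.07 higher (adjusted p = 0.000778). *H2-Q4* had 103 to 124 CPM in tumor-primed, 75.0 to 90.7 CPM in spleen-primed and 65.8 to 68.2 CPM in parental libraries. All 3 had tumor-primed libraries above the other 8.

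Of 10 tested class I-like molecules, relatives of the heavy chains that present lipids or metabolites, transport other ligands or bind NKG2D, 1 was higher in tumor-primed than in spleen-primed cells, 7 were higher in tumor-primed and 4 in spleen-primed than in parental cells, and none was lower, also at an unadjusted p under 0.05 and by DESeq2 or limma-voom. The 1 was *Mr1*, which presents vitamin B metabolites to MAIT cells, at 7.23 ± 1.59 CPM (SD, n = 4) against 4.45 ± 0.94 CPM, with overlap (log2 fold change 0.70 ± 0.17, edgeR adjusted p = 0.0213). The count was 0 with the block, with protein-coding transcripts, with the authors' table, at 0.01, and without tumor-primed replicate 1, 2 or 3 or spleen-primed replicate 1 or 2, and 2 without tumor-primed replicate 4. *Cd1d1*, the lipid-presenting molecule, was higher than in parental cells (5.96 ± 0.87 CPM) in both tumor-primed (12.8 ± 1.46 CPM) and spleen-primed cells (10.6 ± 0.63 CPM), with 0.27 ± 0.10 between these (adjusted p = 0.146). *Raet1e*, a ligand of NKG2D, was not called in any comparison, with log2 fold changes from -0.04 to 0.22.

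Of 6 immunoproteasome and PA28 genes, 4 were higher in tumor-primed than in spleen-primed cells, *Psmb8*, *Psmb9*, *Psme1* and *Psme2*, and none lower, also at an unadjusted p under 0.05 and by DESeq2 or limma-voom. *Psmb8*, a catalytic subunit that replaces its constitutive counterpart, had 32.9, 27.7, 27.4 and 18.4 CPM in tumor-primed replicates, and 9.19 to 12.4 CPM in spleen-primed and 10.3 to 15.4 CPM in parental libraries. Its log2 fold change was 1.30 ± 0.16 over spleen-primed (edgeR adjusted p = 0.000199) and 1.10 ± 0.16 over parental cells (adjusted p = 6.58e-05). The subunits of the PA28 activator, *Psme1* and *Psme2*, were 0.38 ± 0.05 (adjusted p = 0.000378) and 0.50 ± 0.09 (adjusted p = 0.00398) higher in tumor-primed than in spleen-primed cells. Both were lower in spleen-primed than in parental cells, with log2 fold changes of -0.19 ± 0.05 (adjusted p = 0.00825) and -0.33 ± 0.09 (adjusted p = 0.00985). In that comparison 4 of the 6 were called lower, and none was called higher or had an unadjusted p under 0.05 in that direction. Tumor-primed over parental cells had 3 higher and 1 lower, *Pomp*, the maturation factor.

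General chaperones and cytosolic peptidases fold the heavy chain or make and destroy its peptides. None of the 13 tested was called between tumor-primed and spleen-primed cells by edgeR, DESeq2 or limma-voom, and at an unadjusted p under 0.05 there was 1 higher, *Tapbpl*, and 2 lower, *Thop1* and *Ide*. Against parental cells, 7 were lower both in tumor-primed and in spleen-primed cells, *Calr*, *Uggt1*, *Tpp2*, *Thop1*, *Ide*, *Blmh* and *Lap3*. *Thop1*, an oligopeptidase that degrades class I peptides in the cytosol, was at 39.7 ± 4.06 CPM in tumor-primed, 50.8 ± 4.58 CPM in spleen-primed and 80.1 ± 17.1 CPM in parental libraries (tumor-primed over parental -1.01 ± 0.13, edgeR adjusted p = 1.7e-05). *Tapbpl*, a peptide editor related to tapasin, was the 1 gene of the list that edgeR called higher in tumor-primed than in parental cells (0.26 ± 0.09, adjusted p = 0.025), where limma-voom called 2. That count was 0 without tumor-primed replicate 1, 2 or 4 or parental replicate 1 or 3. In spleen-primed over parental cells none was called higher by edgeR, DESeq2 or limma-voom, and *Lnpep* had an unadjusted p under 0.05.

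The DNA-binding partners with which NLRC5 and CIITA assemble are the RFX, NF-Y and CREB/ATF proteins. Of 8 tested genes of this list, none was called between the primed groups by edgeR, DESeq2 or limma-voom, and *Nfya* alone had an unadjusted p under 0.05. Against parental cells, 4 were higher and 1 lower in each primed group, where 31.2% and 28.0% of all tested genes were called higher and lower in tumor-primed and 25.7% and 22.5% in spleen-primed cells. *Nfya*, a subunit of the Y-box binding factor, was at 62.4 ± 4.07 CPM in tumor-primed, 70.7 ± 3.65 CPM in spleen-primed and 51.7 ± 1.60 CPM in parental libraries, and its log2 fold change between the primed groups was -0.18 ± 0.06 (edgeR adjusted p = 0.0639). *Atf1* (-0.09 ± 0.06) and *Rfxap* (-0.15 ± 0.10) followed by p.

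Of 12 interferon and NF-kB regulators, 4 were higher in tumor-primed than in spleen-primed cells and none was lower, also at an unadjusted p under 0.05 and by DESeq2 or limma-voom. The 4 were *Stat2*, *Irf9*, *Irf1* and *Ifnar2*. *Irf9* encodes the subunit through which the type I interferon complex that includes STAT2 binds the ISRE. *Irf9* was at 62.2, 53.1, 42.2 and 27.8 CPM in tumor-primed replicates, 6.39 to 8.31 CPM in spleen-primed and 3.64 to 4.53 CPM in parental libraries, a log2 fold change of 2.70 ± 0.20 over spleen-primed cells (edgeR adjusted p = 4.7e-06). The difference was 1.93 ± 0.20 for *Stat2* (adjusted p = 3.91e-05). Spleen-primed cells had *Irf9* 0.80 ± 0.23 (adjusted p = 0.0108) and *Stat2* 0.67 ± 0.21 (adjusted p = 0.0179) above parental cells. *Irf1*, an interferon-inducible transcription factor, was at 47.2 to 50.8 CPM in tumor-primed, 37.0 to 41.4 CPM in spleen-primed and 24.2 to 29.7 CPM in parental libraries, without overlap between any 2 groups. Its log2 fold change was 0.32 ± 0.06 (edgeR adjusted p = 0.00554) between the primed groups, and 0.88 ± 0.06 (adjusted p = 2.28e-07) for tumor-primed and 0.56 ± 0.06 (adjusted p = 2.04e-05) for spleen-primed over parental cells. Against parental cells, 7 of the 12 were higher and 1, *Rela*, lower in tumor-primed cells, and 7 were higher and *Rela* lower in spleen-primed cells. Replicate 1 was the highest and replicate 4 the lowest tumor-primed library for *Irf9* and *Stat2*, whereas *Irf1* was highest in replicate 1 and lowest in replicate 2.

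Class II molecules present peptides to CD4+ T cells. Of 11 class II genes listed, 3 had enough reads to be tested, *Cd74*, *Ciita* and *H2-DMa*, and none was called between the primed groups by edgeR, DESeq2 or limma-voom or had an unadjusted p under 0.05. *Cd74*, the invariant chain, had 53 to 82 reads in tumor-primed, 74 to 88 in spleen-primed and 63 to 78 in parental libraries. *H2-DMa* fell relative to parental cells in the tumor-primed and the spleen-primed group (-0.32 ± 0.13, edgeR adjusted p = 0.0472, and -0.34 ± 0.13, adjusted p = 0.0469). Both calls were lost with the 8 libraries alone, the block, no count filter, protein-coding transcripts or the authors' table, at 0.01, and on leaving out most single libraries. The exceptions were spleen-primed replicate 4 and parental replicates 1 and 2 for the first call, and tumor-primed replicate 2, spleen-primed replicate 2 and parental replicates 1 and 2 for the second.

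**Figure D4:**
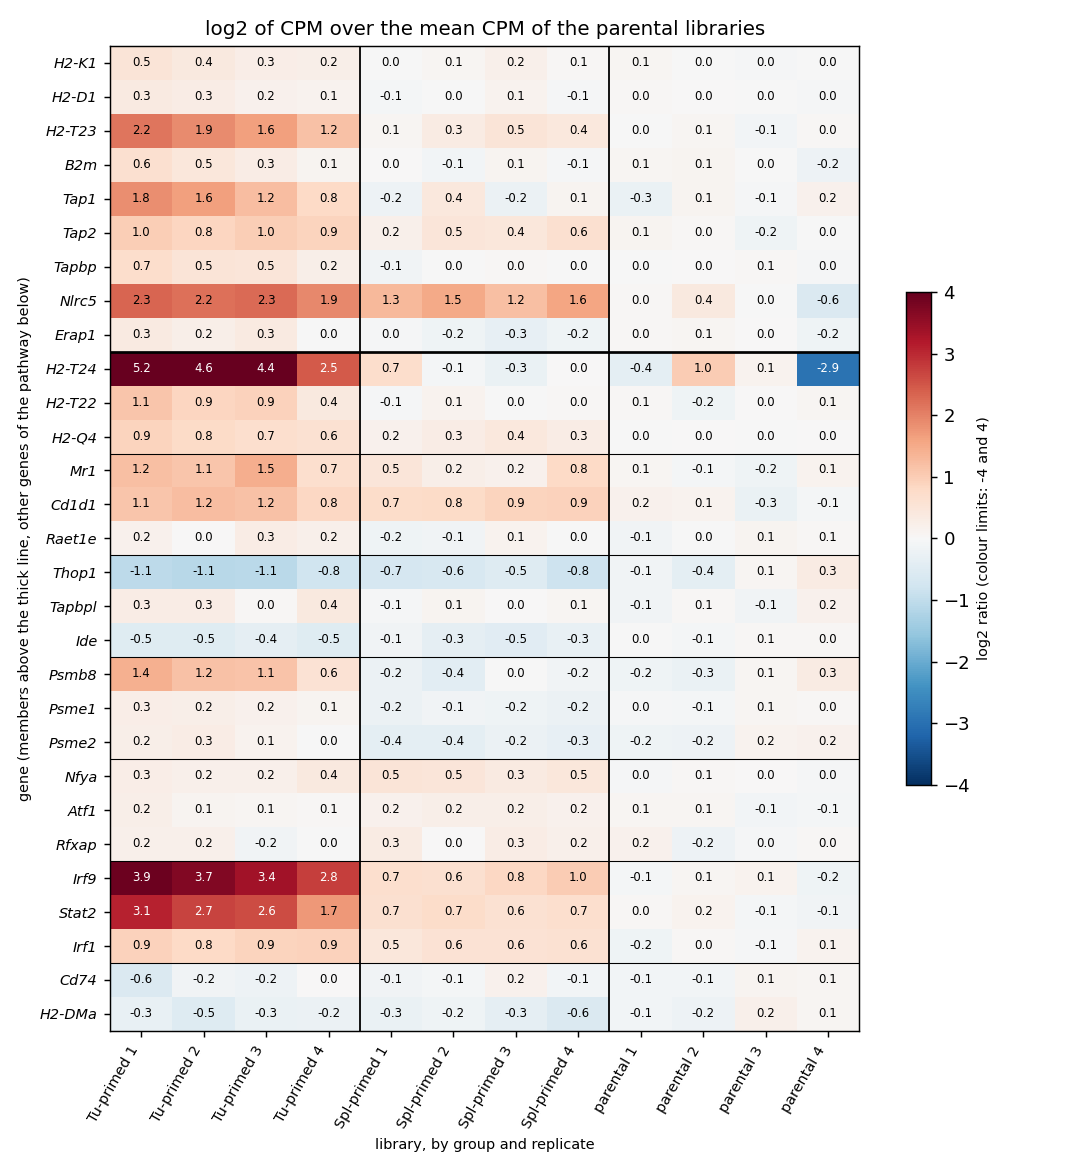
Log2 of CPM over the mean CPM of the parental libraries, by library. The 9 members are above the thick line and the named genes of the other lists below, with thin lines between lists. Chaperones and peptidases come before the immunoproteasome and PA28 genes, and *Ciita* is not shown because of its low level. The color scale saturates for *H2-T24*, and each cell prints its value. The tumor-primed columns are red for the 9 members, with tumor-primed replicate 4 of *Erap1* at the parental mean, while *Thop1* and *Ide* are blue in both primed groups.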

How the data were processed

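RNA was sequenced from 12 libraries of 4T1 cells in 3 groups of 4 (TruSeq Stranded RNA). The files deposited by the authors for single libraries list every Ensembl transcript with its estimated count, which is not normalized, and its TPM, scaled for transcript length and library size. The same deposited tables hold the effective length of each transcript, which was not analyzed. A further table deposited by the authors gives a normalized signal per gene, called normalized counts. The submitters' processing notes name FastQC, Trimmomatic 0.39, Salmon 1.4.0 and the builds GRCm38 and mm10, without saying how each was used. The annotation release behind the files is not given in the sources used here.

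Each gene's estimated counts were summed over its transcripts in GENCODE M21 (GRCm38), then rounded. Transcripts outside that annotation held 0.326% to 0.419% of the reads and were left out. The depth was 24566183 to 31637755 reads (median 27277534), and precision is given by the spread of 4 libraries. filterByExpr of edgeR 4.0.16 (R 4.3.3) kept 12555 of 35521 listed genes, and TMM factors lay between 0.88 and 1.05. CPM is edgeR's count scaled to the TMM-adjusted library size. All 12 libraries were fitted together without a replicate term, and each of 3 comparisons was tested over all 12555 genes with the quasi-likelihood F-test of edgeR, adjusted by Benjamini-Hochberg at a threshold of 0.05. Standard errors were taken as the absolute log2 fold change over the square root of F. Unadjusted p-values throughout are those of this edgeR fit. The procedure was tested on simulated data.

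The genes described, the lists of other pathway genes and the markers were chosen with earlier results of these data known. Named genes were every member, *Ciita*, for each list of other pathway genes the 3 tested genes with the smallest p between tumor-primed and spleen-primed cells, and the 5 other genes whose log2 CPM followed the members' mean standardized log2 CPM most closely. *Psmb9*, *Ifnar2*, *Rela* and other genes named beside a count were chosen for naming with their values in view, as were *S100a8* and *Ltf* among the markers. A gene of the list of interferon and NF-kB regulators is not reported here, and the counts of that list leave it out. Alternatives were DESeq2 1.42.0, limma-voom (limma 3.58.1), RLE normalization, other count filters, the 8 libraries of a comparison alone, a replicate block, protein-coding transcripts only, limma on log2(value + 1) of the authors' table, a threshold of 0.01, and leaving out each library. Python 3.11.15 (pandas 2.3.3, numpy 2.4.6, matplotlib 3.10.9) served for tables and plots. Promoter windows are those of RefSeq on GRCm38.p6.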

Additional observations from a re-analysis of the deposited data

Results flagged for a closer look

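In 105 groups of 4 libraries tested for a library far from the other 3, 2 stood out, where chance gives about 1 in 20 groups. *Ide*, the insulin-degrading enzyme, was at 123.1 CPM in tumor-primed replicate 3 against 113.4 to 114.8 CPM in the other 3 tumor-primed libraries. *Oas1g*, an oligoadenylate synthetase gene, was at 0.400 CPM in parental replicate 4 against 0.797 to 0.824 CPM in the other 3 parental libraries.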

How the results depend on the processing

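The 9 members were called higher between tumor-primed and spleen-primed cells under 6 alternatives: DESeq2, limma-voom, RLE normalization, a fit without a count filter, a stricter filter of 10 counts per library, and a fit of the 8 libraries compared. Protein-coding transcripts alone gave 8 and a threshold of 0.01 gave 6, and with limma on the authors' normalized table it was 4, and leaving out 1 library gave 6 to 9. Tumor-primed over parental cells had 7 with that table and 8 to 9 without 1 library. Spleen-primed over parental cells had 1 with the table, 1 with protein-coding transcripts only, 3 with only the 8 libraries, and 2 to 3 without 1 library. The cause was not tested. The labels do not say whether equal replicate numbers share a day or donor mice. Of 12 same-numbered pairs, the correlation of deviations from the group means lay between -0.16 and 0.15 and exceeded 0.1 in 2. These correlations cannot settle whether libraries were paired. With the replicate number as a block, 7 members were called between the primed groups, without *H2-K1* (adjusted p = 0.0516) and *H2-D1* (adjusted p = 0.0557), and the counts over parental cells were 9 and 2.

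Other genes of the pathway called higher numbered 15 in tumor-primed over spleen-primed cells, 7 with the authors' table, 11 with the block and 10 to 17 without 1 library. In tumor-primed over parental cells they numbered 33 and 27 to 34 without 1 library, and in spleen-primed over parental cells 20, with 13 for the table, 12 at 0.01 and 15 to 21 without 1 library. Called lower between the primed groups was 1 (*Thop1*) with the 8 libraries alone and 0 to 1 without 1 library (*Nfya* or *Thop1*). Against parental cells, 11 were lower in tumor-primed and 14 in spleen-primed cells, and 10 to 11 and 13 to 15 without 1 library. The lists pooled here held 11, 10, 13, 6, 8, 12 and 3 tested genes. Of all tested genes, 4.66%, 31.2% and 25.7% were called higher in the 3 comparisons, and 2.97%, 28.0% and 22.5% lower. The pooled counts, in particular those against parental cells, are to be read beside these shares.

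Changes of sign were limited to spleen-primed over parental log2 fold changes that were not called: *H2-K1* at -0.12 and *Tapbp* at 0.0057 with protein-coding transcripts only, and *Tap1* at -0.11 with the authors' table. *H2-D1* turned to 0.013 with the stricter count filter, 0.016 with protein-coding transcripts and 0.044 with the table. *B2m* turned to 0.00040 with limma-voom, 0.012 with the stricter filter, 0.0042 with the block and 0.040 with protein-coding transcripts. Without 1 library, *H2-D1* lay between -0.069 and 0.027, *B2m* between -0.063 and 0.030, *Tap1* between -0.10 and 0.13 and *Tapbp* between -0.075 and 0.0013. Depth limits the low genes: *H2-T24*, *Ciita*, *Oas1g* and *Dhx58* had down to 1, 4, 10 and 15 reads in a library, and *Tap1* had down to 79.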
